A study of Mus musculus with 4 samples.

Results

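The 36 genes described here encode the enzymes and transporters of glycolysis, the oxygen-sensing proteins that control hypoxia-inducible factor (HIF), and known target genes of HIF. They were found by gene symbol among the 55487 rows of the deposited count table. All 36 were present, and for Aldoa, which had 2 rows, the row with the larger total was used.

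Glycolysis converts glucose to pyruvate and yields ATP without oxygen, and lactate dehydrogenase then turns pyruvate into lactate, which leaves the cell through monocarboxylate transporters. When oxygen is low, prolyl hydroxylases no longer mark the HIF alpha subunit for destruction, and the stabilised factor binds short ACGTG or GCGTG cores near genes for glucose uptake, glycolysis, vessel growth and mitochondrial remodelling. Inflammatory signals can raise HIF and glycolysis in myeloid cells and dendritic cells without a fall in oxygen, and inflamed skin is a tissue in which both have been studied.

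Langerhans cells, which are dendritic cells resident in the epidermis, were isolated from the ears of wild-type mice, and their total RNA was sequenced. Imiquimod, an agonist of a Toll-like receptor that inflames skin in a psoriasis-like way, was given in 2 samples, and Vaseline, the negative control, in 2 samples. The labels give no strain, age, sex, dose, duration or isolation gate, and they do not say whether the samples of a group came from separate animals or from pools. The p-values therefore measure the spread between these libraries, which may be technical. In the sample descriptions both Vaseline libraries carry codes with the same letters and each imiquimod library has letters of its own. The labels do not explain the letters, and any batch they stand for cannot be told apart from treatment.

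Total counts were 14902782 and 20690182 in the imiquimod libraries, against 41998172 and 76028955 in the Vaseline libraries, so levels in Vaseline rest on more counts. Levels below are CPM, counts scaled to a common library size with TMM factors. The median level of 1768 olfactory and vomeronasal receptor genes was taken as a background of scattered reads. It was 0.501 and 0.758 CPM per exonic kilobase in imiquimod libraries and 0.396 and 0.153 in Vaseline libraries, highest in imiquimod 2 and lowest in Vaseline 2. Cd207 (langerin), the defining Langerhans cell marker, was at 1201 and 575 CPM in imiquimod and 2255 and 6883 CPM in Vaseline. Summed over 9 Langerhans cell markers, the level was 6298 and 4716 CPM in imiquimod and 16938 and 41895 CPM in Vaseline, and 9 of 9 had a negative fold change. Krt14, a basal keratinocyte keratin, was at 6502 and 1726 CPM in imiquimod and 5560 and 7505 CPM in Vaseline, a high level in all 4 libraries. In such bulk samples, fewer cells of a type and less RNA per cell cannot be told apart.

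The promoter windows below show where the HIF core stands in 4 of the genes: Ldha, the glycolytic gene with the most matches in 1 window, Ankrd37, a HIF target whose level was lower in both imiquimod libraries, and Adm and Ddit4, HIF targets with a positive fold change. Each window holds 250 bases before and 50 after a transcription start in RefSeq on GRCm38.p6, printed 5′ to 3′ on the gene's strand. Capitals mark ACGTG or GCGTG read on either strand, so that CACGT and CACGC are matches on the other strand. ACGTG lies within the E-box CACGTG, which many other factors bind and which counts once on each strand. A match describes the letters and is not a measured site.
Ldha: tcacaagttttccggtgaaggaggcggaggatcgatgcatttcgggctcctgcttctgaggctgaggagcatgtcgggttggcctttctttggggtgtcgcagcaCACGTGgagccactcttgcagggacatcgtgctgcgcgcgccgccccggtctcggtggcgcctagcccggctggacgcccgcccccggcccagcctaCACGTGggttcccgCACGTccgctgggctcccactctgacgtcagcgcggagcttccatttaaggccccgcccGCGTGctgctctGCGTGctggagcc
Ankrd37: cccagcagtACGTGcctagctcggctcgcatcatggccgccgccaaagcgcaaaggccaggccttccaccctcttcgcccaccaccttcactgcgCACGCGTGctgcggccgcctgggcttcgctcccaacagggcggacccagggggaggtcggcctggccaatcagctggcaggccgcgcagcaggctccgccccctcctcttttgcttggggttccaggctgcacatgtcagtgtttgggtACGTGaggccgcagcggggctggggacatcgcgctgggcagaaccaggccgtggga
Adm: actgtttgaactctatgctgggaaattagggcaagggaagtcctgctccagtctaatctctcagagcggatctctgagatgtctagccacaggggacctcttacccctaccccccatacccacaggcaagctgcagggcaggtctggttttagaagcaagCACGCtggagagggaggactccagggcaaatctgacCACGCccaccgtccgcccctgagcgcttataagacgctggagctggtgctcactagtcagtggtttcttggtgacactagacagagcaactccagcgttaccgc
Ddit4: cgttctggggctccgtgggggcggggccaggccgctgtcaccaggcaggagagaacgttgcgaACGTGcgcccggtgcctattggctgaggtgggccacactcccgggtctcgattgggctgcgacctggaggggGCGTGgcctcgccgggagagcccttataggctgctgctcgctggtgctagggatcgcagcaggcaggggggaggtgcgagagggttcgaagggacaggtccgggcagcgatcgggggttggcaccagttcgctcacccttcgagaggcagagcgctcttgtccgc
The Ldha window (chr7:46845554-46845853, plus strand) had 7 matches, 5 of them ACGTG, and holds the E-box. The Ankrd37 window (chr8:45999801-46000100, minus strand) had 4, of which 2 were ACGTG. The Adm window (chr7:110627407-110627706, plus strand) had 2, both GCGTG on the other strand, and the Ddit4 window (chr10:59951721-59952020, minus strand) had 1 of each kind. Over the 32 genes matched in the RefSeq table, with 46 windows, 82.6% of windows held a core, compared with 43.8% of 32851 windows of all genes. ACGTG was in 58.7% of the genes' windows and 19.6% of all windows, and CACGTG in 13% and 7.15%. The genes' windows were also richer in G and C, at 62.0% compared with 53.8%, and in CG dinucleotides, at 20 per window compared with 12.4. The core is itself built around a CG, and the part of base composition in these shares was not tested. Slc2a3, Bnip3l, Ndufa4l2 and Ndrg1 were not matched.

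Of the 36 genes, 1 fell with imiquimod and 0 rose. The gene that fell was Ndufa4l2, a HIF-induced relative of a respiratory chain subunit. The test was the edgeR quasi-likelihood test with Benjamini-Hochberg adjustment over 39439 genes at a threshold of 0.05, which called 0.137% of all genes tested lower and 0.0634% higher. Without adjustment, at p under 0.05, 8 of the 36 were lower and 0 higher, beside 5.1% lower and 8.63% higher over all genes tested. Of genes at 5 or more times background, to which all of the 36 but Hk3 belong, 13.3% were lower and 1.0% higher at the same p in the same fit. DESeq2 called 3 lower (Ndufa4l2, Tpi1 and Eno1) and 0 higher, where it called 1.69% of all genes lower and 0.0152% higher.

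The direction was shared by most of the genes, and by most other genes of the set taken as above background. The log2 fold change of imiquimod over Vaseline was negative for 33 of 36 and positive for Adm, Ddit4 and Hk3, with a median of -1.13. Over all genes tested the median was 0.41 and 60.6% were positive. The genes at 5 or more times background, of which 14605 were tested, had a median of -0.68 in the same fit, with 17.1% positive. That set was chosen by a mean over libraries in which Vaseline 2, with the lowest background, weighs most. A gene high in Vaseline alone can pass, so the choice itself can tilt the set toward lower values in imiquimod. The size of this tilt was not tested. The levels of the 2 imiquimod libraries lay below both Vaseline libraries for 25 of the 36 genes (69.4%), compared with 20.9% of all genes tested and 50.3% of genes above background. For 0 of the 36 did both imiquimod libraries lie above both Vaseline libraries, compared with 30.5% of all genes and 5.56% of genes above background. Fitted alone, with factors of their own, the genes above background had a median of 0.08. In that fit the 35 genes tested had a median of -0.35, with 23 negative and 12 positive, and edgeR called 0 of them and 0 of all 14605 genes (0.0% in each direction). At an unadjusted p under 0.05, 4 of the 35 were lower and 2 higher, beside 4.78% and 5.46% of the genes fitted. DESeq2 on the same genes called Ndufa4l2 lower (1.07% of genes lower) and 0 of the 35 higher (0.664%).

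**Figure D1:**
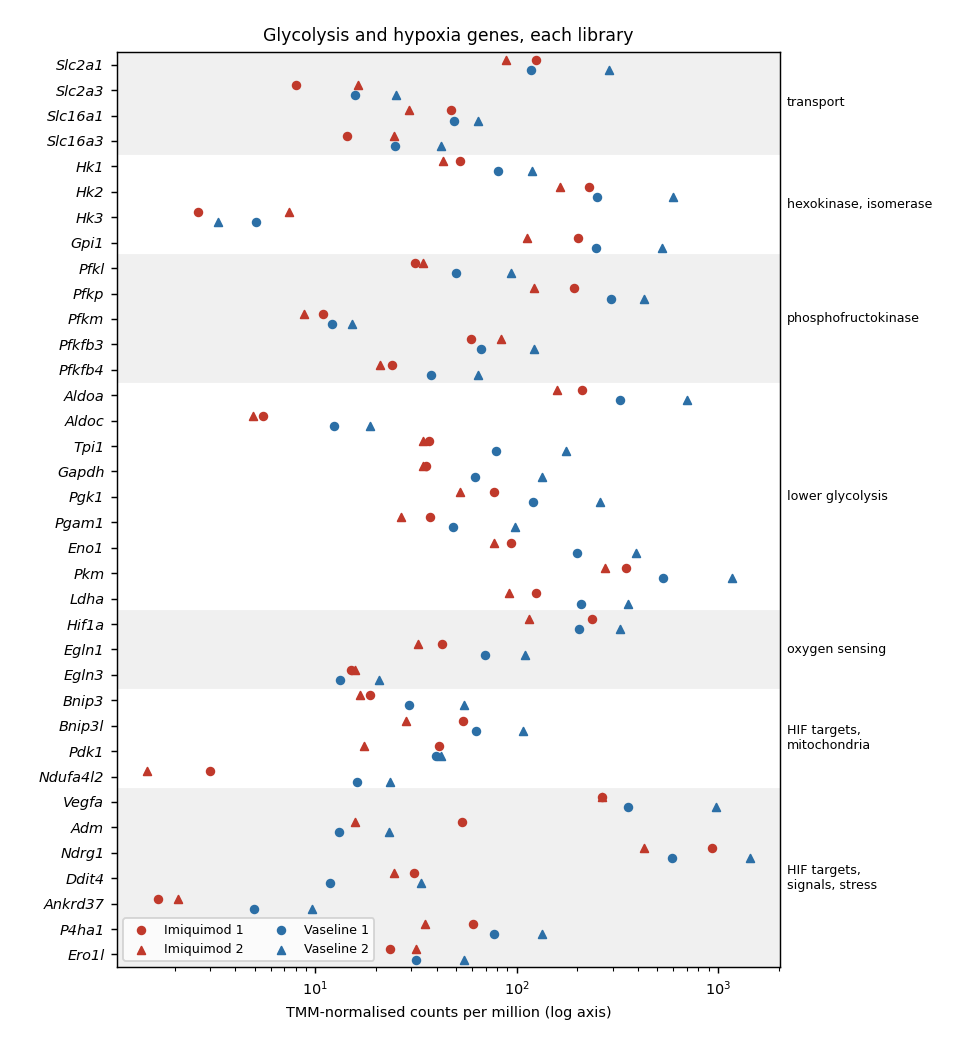
Level of each of the 36 genes in each of the 4 libraries, in TMM-normalised CPM on a log axis. Imiquimod libraries are in red and Vaseline libraries in blue, circles are replicate 1 and triangles replicate 2, and shaded bands separate roles. For 34 genes the highest point is Vaseline 2, and Ndufa4l2 has the widest gap between the groups.

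As a share of all counts of a library, with no scaling factor, the 36 genes together took 0.394% and 0.421% in imiquimod and 0.416% and 0.541% in Vaseline. Imiquimod 1, imiquimod 2 and Vaseline 1 thus held similar shares and Vaseline 2 a larger one. In CPM, 34 genes were highest in Vaseline 2, with Adm highest in imiquimod 1 and Hk3 in imiquimod 2 as the exceptions, and 26 were lowest in imiquimod 2. The Vaseline libraries differed by a median of 0.81 on the log2 scale, and for 11 genes (Slc2a1, Hk2, Hk3, Pfkfb3, Hif1a, Egln3, Vegfa, Adm, Ndrg1, Ddit4 and Ero1l) this gap exceeded the one between the group means.

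Levels per exonic kilobase allow genes to be ranked. By the mean over all libraries, the most abundant of the 36 was Ndrg1, at 103 CPM per kilobase in imiquimod and 154 in Vaseline. In Vaseline alone, Aldoa, Pkm and Vegfa were above it. Aldoa followed with 63.7 in imiquimod and 177 in Vaseline, then Pkm with 62.2 in imiquimod and 170 in Vaseline, and Vegfa with 62.0 in imiquimod and 156 in Vaseline. The least abundant by the same mean was Hk3, with 1.36 in imiquimod and 1.13 in Vaseline, a mean of 3.34 times background.

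None of the 4 glucose and lactate transporter genes passed the test. Slc2a1, the widely expressed glucose transporter on chr4:119108711-119137983 (GRCm38), was at 125 and 88.4 CPM in imiquimod and 117 and 286 CPM in Vaseline. Imiquimod 1 exceeded Vaseline 1, and the groups overlapped. The log2 fold change was -0.92 (SE 0.78, edgeR adjusted p = 0.52), and -0.08 among genes above background. Slc2a3, a high-affinity glucose transporter, was at 8.05 and 16.3 CPM in imiquimod and 15.7 and 25.1 CPM in Vaseline. Slc16a1, which carries lactate and pyruvate either way across the membrane, was at 47.4 and 29.1 CPM in imiquimod and 48.8 and 64.4 CPM in Vaseline. Slc16a3, a lactate exporter of glycolytic cells, was at 14.3 and 24.5 CPM in imiquimod and 24.9 and 42.1 CPM in Vaseline. The groups of Slc16a1 and Slc16a3 were separated by small gaps and those of Slc2a3 overlapped. The median log2 fold change of the 4 genes was -0.74, and 0.15 among genes above background.

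Hexokinases trap glucose in the cell by phosphorylating it, and none of the 3 passed the test. Hk2, the inducible hexokinase, was the main one in every library, with 229 and 163 CPM in imiquimod and 251 and 598 CPM in Vaseline. Its imiquimod libraries lay below both Vaseline libraries, although imiquimod 1 was close to Vaseline 1. Its log2 fold change was -1.12 (SE 0.92, edgeR adjusted p = 0.511). Hk1, the constitutive form, was at 52.6 and 43.3 CPM in imiquimod and 81.1 and 120 CPM in Vaseline (log2 fold change -1.07, SE 0.69, edgeR adjusted p = 0.431). Hk3, a hexokinase of myeloid cells, was at 2.62 and 7.38 CPM in imiquimod and 5.04 and 3.28 CPM in Vaseline, with overlapping groups and levels near background. Hk2 took 84.8% and 79.4% of the family's counts per kilobase in imiquimod and 79.5% and 87.0% in Vaseline, a difference of -1.14 percentage points (exact permutation test, two-sided, p = 0.67). The difference had no stable sign, at 0.74 with background subtracted and between -4.92 and 2.65 with a library left out. With 2 libraries against 2 this exact test cannot give a p below 0.33. Gpi1, the isomerase of the next step, was at 202 and 112 CPM in imiquimod and 248 and 528 CPM in Vaseline, without overlap (log2 fold change -1.31, SE 0.90, edgeR adjusted p = 0.45).

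Phosphofructokinase makes the committed step of glycolysis, and none of its 3 isozyme genes passed the test. Pfkp, the platelet form, was at 192 and 122 CPM in imiquimod and 295 and 427 CPM in Vaseline (log2 fold change -1.20, SE 0.89, edgeR adjusted p = 0.471). Pfkl, the liver form, was at 31.4 and 34.3 CPM in imiquimod and 49.9 and 93.2 CPM in Vaseline (log2 fold change -1.12, SE 0.65, edgeR adjusted p = 0.404). Pfkm, the muscle form, was at 10.9 and 8.81 CPM in imiquimod and 12 and 15.3 CPM in Vaseline. The groups of all 3 were separate in CPM, with imiquimod below Vaseline, while the log2 fold change of Pfkm turned to 0.31 among genes above background. Pfkp held 64.2% and 53.9% of the family's counts per kilobase in imiquimod and 66.5% and 63.2% in Vaseline, and these shares overlapped (exact permutation p = 0.67). The share of Pfkm, singled out after its values were seen, was 14.7% and 15.6% in imiquimod and 10.9% and 9.07% in Vaseline, without overlap.

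The PFKFB enzymes make and degrade the sugar phosphate that switches phosphofructokinase on, and their 2 genes had different patterns. Pfkfb3, whose product mostly makes the activator, was at 59.4 and 83.8 CPM in imiquimod and 66.8 and 123 CPM in Vaseline. Imiquimod 2 lay above Vaseline 1, so the groups overlapped, and its log2 fold change of -0.40 (SE 0.69, edgeR adjusted p = 0.744) was 0.50 among genes above background. Pfkfb4 was at 24.1 and 21.0 CPM in imiquimod and 37.6 and 64.3 CPM in Vaseline, without overlap (log2 fold change -1.18, SE 0.63, edgeR adjusted p = 0.377). The share of Pfkfb4 in the counts per kilobase of the pair, a ratio within a library that no scaling factor touches, was 38.6% and 28% in imiquimod and 46.6% and 44.9% in Vaseline. Both imiquimod libraries were lower, by a mean of -12.4 percentage points, and the exact permutation p was 0.33, the smallest it can be. The difference was -7.14 percentage points without imiquimod 2 and -17.7 without imiquimod 1.

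The stretch from aldolase to lactate dehydrogenase was the only one of the 7 role groups in which both imiquimod libraries lay below both Vaseline libraries for every gene, 9 of 9, compared with 20.9% of all genes tested and 50.3% of genes above background. None passed the edgeR threshold, and 5 of 9 had an unadjusted p under 0.05. In that fit 5.1% of all genes tested and 13.3% of genes above background were lower at that p. In the fit of genes above background alone, 3 of 9 were lower at that p, beside 4.78% of the genes fitted. The median log2 fold change of the 9 genes was -1.49, and -0.65 among genes above background, where 9 of 9 were also negative. In that fit 55.7% of all genes were positive. All 7 pentose phosphate genes and the 3 hexokinase and isomerase genes fitted were negative too, while the other role groups held both signs. Aldoc, at 1.59 CPM per exonic kilobase in imiquimod and 4.75 in Vaseline, entered that set through Vaseline. Summed, the 9 genes of lower glycolysis were at 972 and 753 CPM in imiquimod and 1588 and 3314 CPM in Vaseline. As a share of all counts of a library they took 0.102% and 0.125% in imiquimod and 0.151% and 0.198% in Vaseline, so the groups were separate without any scaling factor. Shares were also separate, with imiquimod lower, for hexokinases and isomerase, at 0.0511% and 0.0540% in imiquimod and 0.0558% and 0.0746% in Vaseline. The mitochondrial HIF targets were separate as well, and the remaining role groups overlapped. Of the related lists below, pentose phosphate genes took 0.0252% and 0.0251% in imiquimod and 0.0319% and 0.0335% in Vaseline. Glycogen genes were also lower in both imiquimod libraries, and the other lists were not.

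Tpi1, the triose phosphate isomerase gene on chr6:124810586-124814296, was at 36.5 and 34.3 CPM in imiquimod and 79.1 and 175 CPM in Vaseline. Its imiquimod libraries were close together and its Vaseline libraries were not. The log2 fold change was -1.85 (SE 0.71, edgeR adjusted p = 0.278). DESeq2 called the gene, with an adjusted p of 0.0268, and did not among genes above background, with an adjusted p of 0.268. Eno1, an enolase, was at 94.1 and 77.2 CPM in imiquimod and 198 and 393 CPM in Vaseline (log2 fold change -1.79, SE 0.84, edgeR adjusted p = 0.339). DESeq2 called it too, with an adjusted p of 0.0282, and did not among genes above background, with an adjusted p of 0.20. Of the 50-base words of Eno1 transcripts, 72.2% also occur in other genes, Eno1b above all, so its count depends on how shared reads were assigned, which is not given in the sources used here.

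The other 7 genes of this stretch had log2 fold changes between -1.59 and -1.21. Aldoa, the main aldolase, was at 212 and 159 CPM in imiquimod and 327 and 705 CPM in Vaseline. Aldoc, a second aldolase, was far lower, at 5.49 and 4.90 CPM in imiquimod and 12.3 and 18.7 CPM in Vaseline. Gapdh, the dehydrogenase often used as a reference gene, was at 35.3 and 34.3 CPM in imiquimod and 62.0 and 133 CPM in Vaseline. All 3 showed the same order of libraries, with Vaseline 2 highest and imiquimod 2 lowest. Pgk1, which makes the first ATP of the pathway, was at 77.6 and 52.0 CPM in imiquimod and 121 and 260 CPM in Vaseline. Pgam1, a mutase, was at 36.9 and 26.7 CPM in imiquimod and 48.4 and 98.3 CPM in Vaseline. Neither group pair overlapped. Pkm, the pyruvate kinase gene, was at 348 and 274 CPM in imiquimod and 530 and 1172 CPM in Vaseline. Ldha, which makes lactate and whose promoter window is printed above, was at 125 and 91.6 CPM in imiquimod and 209 and 358 CPM in Vaseline. In both, Vaseline 2 stood above the other 3 libraries. The edgeR adjusted p of these 7 genes lay between 0.282 and 0.481. Shared 50-base words made up 68.0% of Pgk1, 41.5% of Pgam1, 34.4% of Pkm, 27.2% of Gapdh, 16.6% of Ldha and 13.5% of Aldoa, mostly with pseudogenes or close copies, and these counts are uncertain to that extent.

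**Figure D2:**
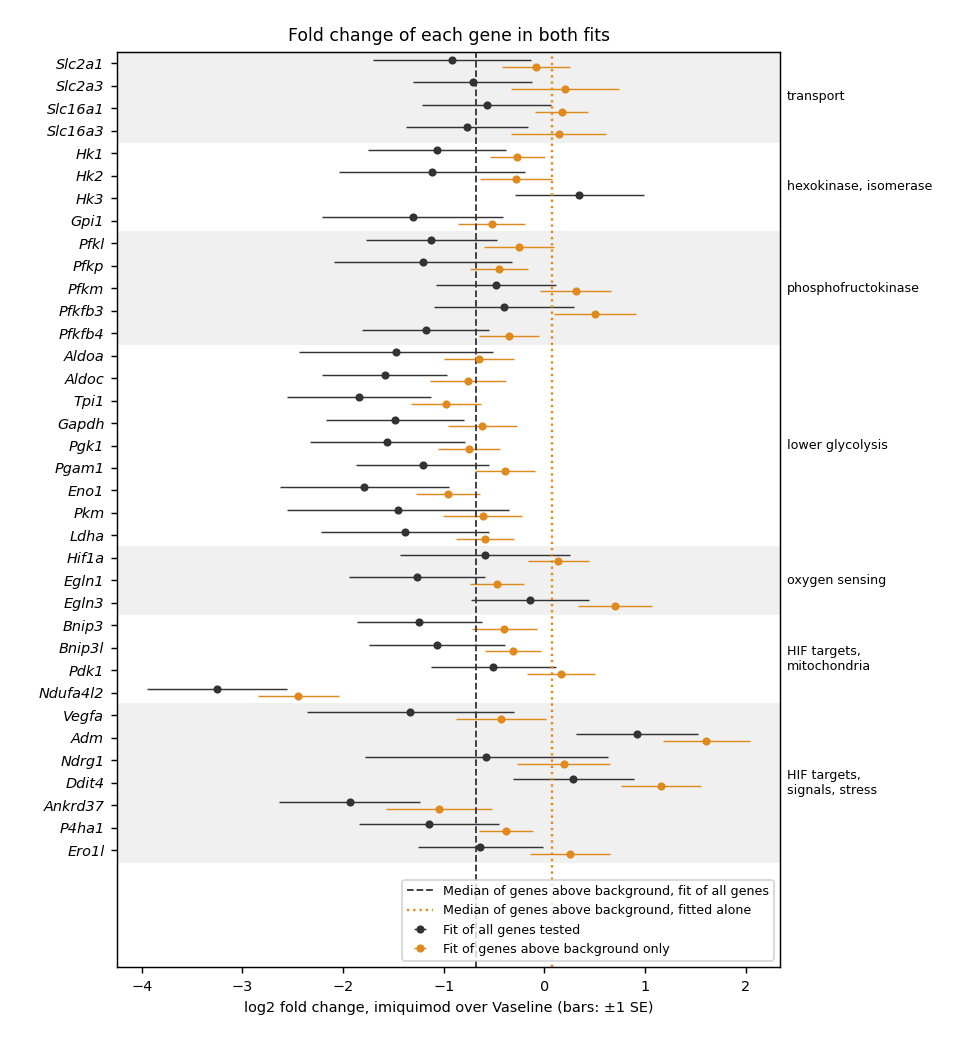
Log2 fold change of imiquimod over Vaseline for each gene, with bars of 1 standard error, in the fit of all genes tested (black) and in the fit of genes above background alone (orange). The dashed and dotted lines are the medians of the genes above background in each fit, -0.68 and 0.08. The 9 genes of lower glycolysis lie left of the line in both fits, Ndufa4l2 lies farthest left, and Adm lies farthest right.

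The oxygen-sensing genes did not pass the test. Hif1a, the inducible subunit of HIF on chr12:73901375-73947530, was at 236 and 116 CPM in imiquimod and 203 and 325 CPM in Vaseline. The groups overlapped, and the log2 fold change of -0.59 (SE 0.84, edgeR adjusted p = 0.689) was 0.14 among genes above background. HIF is controlled mainly through the stability of this protein, which RNA levels do not show. Egln1, the main prolyl hydroxylase that marks HIF for degradation, was at 42.7 and 32.2 CPM in imiquimod and 69.4 and 110 CPM in Vaseline, without overlap (log2 fold change -1.27, SE 0.68, edgeR adjusted p = 0.377). Egln3, a hydroxylase that is itself a HIF target, was at 14.9 and 15.8 CPM in imiquimod and 13.3 and 20.7 CPM in Vaseline. Its imiquimod values lay between the Vaseline values, and its log2 fold change of -0.14 was 0.70 among genes above background.

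Among HIF targets that act in mitochondria, Ndufa4l2 fell. The gene (ENSMUSG00000040280, chr10:127514967-127517154, plus strand) encodes a HIF-induced protein related to Ndufa4, a subunit of the respiratory chain, and is known to restrain mitochondrial respiration in low oxygen. It had counts of 47 and 50 in imiquimod and 648 and 1066 in Vaseline, or 3 and 1.46 CPM in imiquimod and 16.2 and 23.5 CPM in Vaseline. Both imiquimod libraries lay far below both Vaseline libraries. The imiquimod mean was 2.04 CPM per exonic kilobase, not far above the background of 0.501 and 0.758 in these libraries. The log2 fold change was -3.25 (SE 0.69, edgeR adjusted p = 0.00376), and -2.45 (SE 0.40, edgeR adjusted p = 0.311) among genes above background. DESeq2 gave an adjusted p of 0.00067 for all genes and 3.9e-05 for genes above background. The imiquimod mean was under 5 times the background of those libraries, while the Vaseline mean was 18.1 CPM per exonic kilobase. Ndufa4l2 thus entered the set above background through Vaseline, and the values from that set are no separate support for a fall. With edgeR, the call was lost without imiquimod 1 (adjusted p = 0.262), without imiquimod 2 (adjusted p = 1.00) and without Vaseline 2 (adjusted p = 0.12), and under edgeR's older quasi-likelihood form (adjusted p = 0.238). The edgeR call was also lost with library totals alone, with no filter and with the replicate block. The fold change kept its sign in every alternative run, between -3.84 and -2.42.

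Ndufa4, the constitutive relative, was at 8.37 and 5.81 CPM in imiquimod and 10.1 and 20.9 CPM in Vaseline (log2 fold change -1.16, SE 0.61, edgeR adjusted p = 0.373). Ndufa4l2 took 31.2% and 24.1% of the counts per kilobase of the pair in imiquimod and 66.8% and 58.6% in Vaseline, a comparison added after the values were seen. It was the larger of the pair in Vaseline and the smaller in imiquimod. The mean difference was -35.1 percentage points (exact permutation p = 0.33, the smallest possible). No 50-base word of Ndufa4l2 occurred in another gene.

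The other mitochondrial targets did not pass the test. Bnip3, a receptor that marks mitochondria for removal by autophagy, was at 18.7 and 16.7 CPM in imiquimod and 29.2 and 54.5 CPM in Vaseline. Bnip3l, its relative of the same function, was at 53.9 and 28 CPM in imiquimod and 62.6 and 108 CPM in Vaseline. Imiquimod was below Vaseline in both, with log2 fold changes of -1.24 and -1.07 (edgeR adjusted p = 0.359 and 0.425). Bnip3 took 37.2% and 50.4% of the pair's counts per kilobase in imiquimod and 44.3% and 46.3% in Vaseline, and the groups overlapped. Shared 50-base words made up 21.9% of Bnip3 and 23.4% of Bnip3l. Exons of another gene, mainly Gm45507, cover 22.3% of the exonic bases of Bnip3, so the counts of the pair are uncertain to that extent. Pdk1, a kinase that keeps pyruvate out of mitochondrial oxidation, was at 40.9 and 17.4 CPM in imiquimod and 39.8 and 42.2 CPM in Vaseline. Only imiquimod 2 stood apart from the other 3 libraries in Pdk1.

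**Figure D3:**
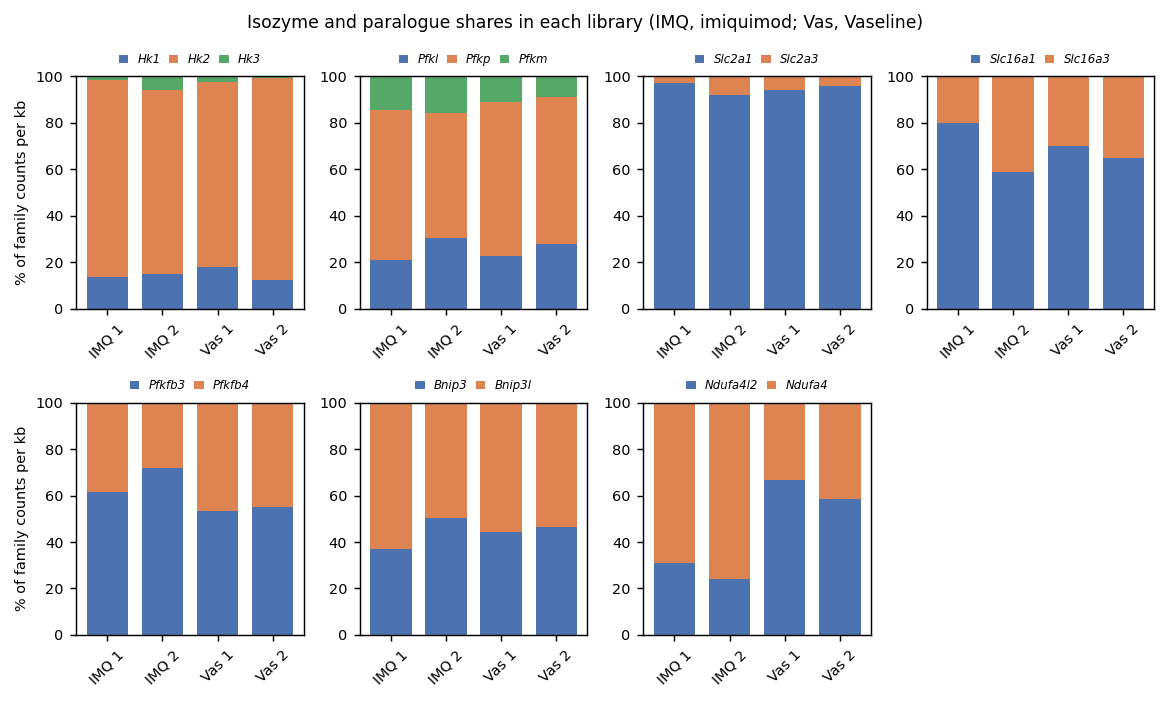
Share of each isozyme or paralogue in the counts per exonic kilobase of its family, as a percentage, in each imiquimod and Vaseline library. Ndufa4l2 makes up 31.2% and 24.1% of its pair in imiquimod and 66.8% and 58.6% in Vaseline, Pfkfb4 is lower and Pfkm higher in both imiquimod libraries, and the shares of the other genes, apart from the partners Ndufa4 and Pfkfb3, overlap between groups.

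The HIF targets that act as signals or in stress responses split in direction, and none passed the test. Vegfa, the vascular growth factor, was at 266 and 265 CPM in imiquimod and 358 and 979 CPM in Vaseline. The groups were separate, but Vaseline 2 stood far above the other 3 libraries (log2 fold change -1.33, SE 1.03, edgeR adjusted p = 0.489). Ankrd37, a small ankyrin repeat protein known as a hypoxia target, was at 1.66 and 2.07 CPM in imiquimod and 4.94 and 9.62 CPM in Vaseline. Its imiquimod mean of 1.21 CPM per exonic kilobase was near the background of 0.501 and 0.758 in these libraries. Its log2 fold change was -1.93 (SE 0.70, edgeR adjusted p = 0.237), and it passed the test in 1 of 4 edgeR fits with a library left out. Without Vaseline 1, a fit that rests on 1 Vaseline library and called 2959 genes higher and 317 lower over the whole table, it was -2.47 with an edgeR adjusted p of 0.0191. In the other 3 it lay between -2.14 and -1.42, with edgeR adjusted p between 0.337 and 1.00. Exons of another gene, mainly Lrp2bp, cover 26.4% of its exonic bases, and whether counting used strand is not given in the sources used here. P4ha1, a prolyl hydroxylase of collagen, was at 60.7 and 35.0 CPM in imiquimod and 77.2 and 134 CPM in Vaseline, also without overlap.

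Adm and Ddit4 had the highest fold changes of the 36 genes among genes above background. Adm, which encodes the vasodilator peptide adrenomedullin, was at 53.8 and 15.8 CPM in imiquimod and 13.1 and 23.2 CPM in Vaseline. Imiquimod 1 stood above the other 3 libraries, and imiquimod 2 lay between the Vaseline values. The log2 fold change was 0.92 (SE 0.61, edgeR adjusted p = 0.438), 1.61 among genes above background (edgeR adjusted p = 0.441, DESeq2 adjusted p = 0.0661), and -0.28 without imiquimod 1. Ddit4, an inhibitor of mTOR signalling induced by hypoxia and other stresses, was at 30.9 and 24.5 CPM in imiquimod and 11.8 and 33.3 CPM in Vaseline. Both imiquimod values lay between the Vaseline values, and the log2 fold change was 0.29 (edgeR adjusted p = 0.789) and 1.16 among genes above background (edgeR adjusted p = 0.472). Both genes had GCGTG in the windows printed above, as did Ldha and Ankrd37. Ndrg1, a stress-response gene used as a hypoxia marker, was at 930 and 431 CPM in imiquimod and 590 and 1440 CPM in Vaseline. Ero1l, an oxidase of the endoplasmic reticulum, was at 23.5 and 31.8 CPM in imiquimod and 31.5 and 54.7 CPM in Vaseline. The groups of both overlapped.

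Of related genes outside the 36, edgeR called 0 of 13 genes for pyruvate entry into mitochondria, 0 of 7 of the pentose phosphate pathway, 0 of 10 of glycogen turnover, 0 of 12 other sugar and monocarboxylate transport genes, 0 of 14 other genes of the HIF system and 0 of 30 other HIF targets. At an unadjusted p under 0.05 these lists held 1 higher and 2 lower, 0 and 1, 0 and 3, 0 and 0, 0 and 5, and 2 higher and 2 lower, in the same order. At that p 8.63% of all genes tested were higher and 5.1% lower, and of genes above background 1.0% and 13.3%. The median log2 fold changes of the 6 lists were -0.75, -1.02, -0.92, -0.22, -0.64 and -0.68. For 7 of 7 pentose phosphate genes both imiquimod libraries lay below both Vaseline libraries, compared with 20.9% of all genes tested and 50.3% of genes above background. In the fit of genes above background their median log2 fold change was -0.17, against -0.65 for the 9 genes of lower glycolysis. In these 6 lists DESeq2 on all genes tested called Pdk3 and Pygb lower and 0 higher. Over all genes tested it called 1.69% lower and 0.0152% higher. Pdk3, a kinase that inhibits pyruvate dehydrogenase, was at 28.1 and 17.2 CPM in imiquimod and 56.3 and 115 CPM in Vaseline (log2 fold change -1.93, edgeR adjusted p = 0.219, DESeq2 adjusted p = 0.0269). Pygb, a glycogen phosphorylase, was at 21.1 and 21.0 CPM in imiquimod and 51.2 and 82.0 CPM in Vaseline (log2 fold change -1.66, edgeR adjusted p = 0.284, DESeq2 adjusted p = 0.0346). Both were lower in each imiquimod library.

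From the same lists, Angptl4 and Pdk4 had positive fold changes and were highest in imiquimod 1. Angptl4, a HIF and lipid-sensor target that inhibits lipoprotein lipase, was at 68.9 and 11.4 CPM in imiquimod and 11.0 and 14.0 CPM in Vaseline (log2 fold change 1.66, SE 0.62, edgeR adjusted p = 0.256). Pdk4, a kinase of the same family as Pdk1, was at 48.4 and 8 CPM in imiquimod and 10.7 and 13.3 CPM in Vaseline (log2 fold change 1.20, SE 0.60, edgeR adjusted p = 0.362). In both, imiquimod 1 stood alone, as it did for Adm, and imiquimod 2 did not exceed Vaseline 2. Among genes above background, DESeq2 called Angptl4 higher (adjusted p = 0.0239) and edgeR did not (adjusted p = 0.441).

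Markers of other cell types differed between the libraries beside these values, and their part in any result was not tested. The 10 keratinocyte markers summed to 15879 and 4184 CPM in imiquimod and 16497 and 19898 CPM in Vaseline. That sum was lowest in imiquimod 2, where 26 of the 36 genes were lowest, and highest in Vaseline 2, where 34 were highest. The Langerhans cell sum, at 6298 and 4716 CPM in imiquimod and 16938 and 41895 CPM in Vaseline, had the same lowest and highest library. The T cell sum was lowest in imiquimod 2 too. The 8 markers of activated keratinocytes summed to 1451 and 441 CPM in imiquimod and 357 and 768 CPM in Vaseline, highest in imiquimod 1, where Adm, Angptl4 and Pdk4 were highest. The 10 neutrophil markers summed to 73.8 and 269 CPM in imiquimod and 16.2 and 50.3 CPM in Vaseline, and the sum was highest in imiquimod 2, where Hk3 was highest. The mast cell, endothelial, mural, muscle and erythroid sums, and the background of scattered reads, were highest in that library too. Monocyte and macrophage markers (10 genes) summed to 125 and 164 CPM in imiquimod and 142 and 189 CPM in Vaseline, and T cell markers (10 genes) to 268 and 217 CPM in imiquimod and 408 and 376 CPM in Vaseline. Fibroblast markers (8 genes) summed to 34.9 and 67.1 CPM in imiquimod and 52.8 and 167 CPM in Vaseline. Mast cell markers (8 genes) summed to 38.6 and 78.2 CPM in imiquimod and 22.6 and 26.3 CPM in Vaseline, with Fcer1a at 0 in all 4 libraries. Melanocyte, endothelial, mural, muscle and erythroid lists summed to at most 61.5 CPM in any library.

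**Figure D4:**
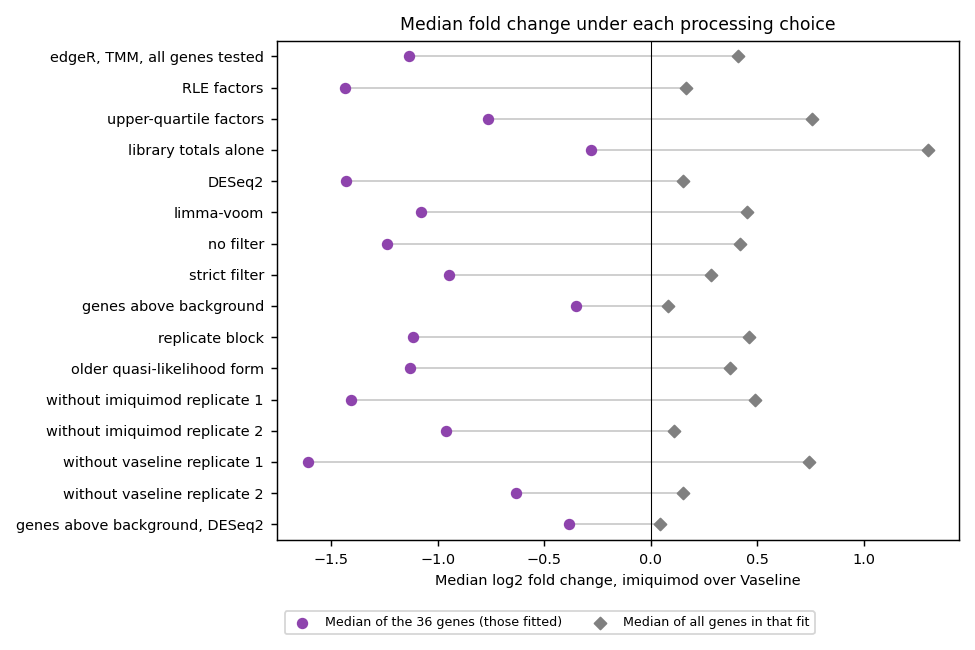
Median log2 fold change of imiquimod over Vaseline for the 36 genes (purple circles) and for all genes in the same fit (grey diamonds) under each way of processing the counts. The median of the 36 genes is negative under all of them, from -1.61 to -0.28, and lies below the median of all genes each time.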

How the data were processed

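RNA-seq was deposited by the authors as counts of reads per gene, whole numbers with no scaling, for 4 libraries, 2 per group. The submitters' processing notes name the build GRCm38 and the tools Trimmomatic, HISAT2, SAMtools and StringTie, with no role for each. Versions, annotation, strand setting and the treatment of multi-mapped reads are not given in the sources used here. Per the labels' protocols, libraries were made with a stranded total RNA kit for low input.

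Totals ranged from 14902782 to 76028955 counts. The whole table was fitted with edgeR 4.0.16 in R 4.3.3 (quasi-likelihood test in its newer form, two-sided, TMM factors, treatment as the only term). filterByExpr (minimum count 10, minimum total 15) kept 39439 of 55487 rows, all 36 genes among them, and Benjamini-Hochberg adjustment ran over all of them. The common dispersion of 0.369 corresponds to a biological coefficient of variation of 0.607. Each SE was obtained by dividing the log2 fold change by the root of its F statistic. Exonic lengths came from GENCODE vM21, which held 55227 of the rows. Genes above background had a level per exonic kilobase of at least 5 times the median of 1768 olfactory and vomeronasal receptor genes, as a mean over libraries (15008 rows). Vaseline 2, with the lowest background, weighs most in that mean. Shares within a family used counts per exonic kilobase and an exact permutation test. The fits were also run on simulated counts whose groups differed only in planted changes. Those counts lacked the difference in background between these libraries, so they do not test its effect.

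The genes and lists were chosen with earlier results of these data known. Library values were given in full for genes with an adjusted p under 0.05, the 12 of smallest p or of highest level per kilobase, and those without overlap and with an absolute log2 fold change of at least 1; other members were given more briefly, and of each related list at most 3 genes of smallest p. Some genes that met this rule, and 1 list of related genes, are not reported here. Alternatives were RLE, upper-quartile or no factors, DESeq2 1.42.0, limma-voom (limma 3.58.1), no filter, a stricter filter (10 counts in every library and 50 in total), genes above background alone, a replicate block and leaving out each library. Python 3.11.15 with pandas 2.3.3 and numpy 2.4.6 was used for tables, exact tests were run with scipy 1.17.1, overlaps found with bedtools 2.31.1 and plots drawn with matplotlib 3.10.9.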

Additional observations from a re-analysis of the deposited data

How the results depend on the processing

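With 2 libraries a group, counts limit precision less than the spread between libraries. Of the 36 genes, 0 were called higher under any setting. The number called lower was 1 with RLE or upper-quartile factors, limma-voom, the stricter filter and DESeq2 on genes above background, 3 with DESeq2, and 0 with library totals alone, with no filter, for genes above background in edgeR, with the replicate block and with the older edgeR form; leaving out each library gave 0 to 2. Genes called higher over the whole table numbered 17 with RLE factors, 41 with upper-quartile factors, 8 with totals alone, 6 with DESeq2, 41 with limma-voom, 0 with no filter, 27 with the stricter filter, 0 above background, 1 with the replicate block, 3 with the older form and 97 with DESeq2 above background, and 8 to 2959 with a library left out, the last without Vaseline 1. Genes called lower numbered 14, 56, 5, 667, 136, 0, 124, 0, 0, 5 and 156 in the same order, and 0 to 317 with a library left out. The older form and DESeq2 on genes above background were chosen after seeing the data. The median log2 fold change of the 36 genes was -0.28 with totals alone, -0.35 and -0.39 above background with edgeR and DESeq2, and -1.61 to -0.64 with a library left out. The share of Ndufa4l2 differed by -41.5 percentage points after background was subtracted.

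Deviations of same-numbered libraries had a correlation of -0.33 over 39439 genes and -0.13 over the 14605 above background. A single difference in each group cannot decide whether such libraries were paired, and the labels state no pairing. With the replicate block, the edgeR adjusted p of Ndufa4l2 was 0.705 and its log2 fold change -3.29.

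The sign of 10 genes turned with totals alone, above background in edgeR, and above background in DESeq2, in that order for each: Slc2a3 (0.28, 0.20, 0.17), Slc16a1 (0.21, 0.17, 0.14), Slc16a3 (0.21, 0.14, 0.11), Pfkm (0.36, 0.31, 0.28), Pfkfb3 (0.56, 0.50, 0.47), Hif1a (0.18, 0.14, 0.10), Egln3 (0.76, 0.70, 0.67), Pdk1 (0.19, 0.16, 0.13), Ndrg1 (0.25, 0.19, 0.15) and Ero1l (0.32, 0.25, 0.22). Egln3 was also positive with upper-quartile factors (0.23) and the stricter filter (0.057), and Ddit4 negative with RLE factors (-0.044) and DESeq2 (-0.037). With a library left out, the log2 fold change ranged from -0.65 to 0.77 for Hk3, from -0.90 to 0.068 for Pfkfb3, from -0.55 to 0.18 for Egln3, from -1.31 to 0.0042 for Pdk1, from -0.28 to 1.57 for Adm, from -1.31 to 0.19 for Ndrg1 and from -0.39 to 1.20 for Ddit4. The cause of these turns was not tested.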
